A study of Mus musculus with 2 samples.

Results

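Among 27777 barcodes from mouse dorsal root ganglia, 105 carried the transcript of the receptor gene Mrgprd together with those of the neuropeptide genes Tac1 and Adcyap1. A barcode stands for 1 captured cell, or for whatever else shared its droplet. It was a member when it held at least 2000 unique molecular identifiers (UMIs, the counted molecules), at least 3 Mrgprd UMIs, at least 3 Mrgprd and 3 Tac1 UMIs per 10000 of its own UMIs, and at least 1 Adcyap1 UMI per 10000. Of the 105, 30 came from the control library and 75 from the Treg_Penk_KO library, among 14886 barcodes that reached 2000 UMIs. They are called double-marker barcodes here, after the rule, and not by the name of a cell type.

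The study took cervical ganglia of levels C2 to C7, fixed them in paraformaldehyde and profiled them with probes by the 10x Flex assay, which the labels call single-cell and the series text single-nucleus. Control mice were Foxp3 CreER; Penk fl/WT and Treg_Penk_KO mice were Foxp3 CreER; Penk fl/fl, and mice of both groups received tamoxifen and 3 days of imiquimod, which inflames the skin. Penk encodes the precursor of the enkephalins, and the recombinase was driven by Foxp3, the gene that defines regulatory T cells, so the labelled deletion concerns cells that express Foxp3. Each group was 1 library labelled as pooled, and the sources used here give neither the age nor the number of the mice. With 1 library a group there was no test between genotypes, and every interval below is an exact 95% interval that covers counting error only.

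Sensory neurons that detect painful stimuli fall into broad classes. Nonpeptidergic nociceptors of the Mrgprd class innervate the epidermis and express Mrgprd, a receptor for beta-alanine, with little neuropeptide. Peptidergic nociceptors release substance P, made from Tac1, and calcitonin gene-related peptide (CGRP), made from Calca, and many also express Adcyap1, which encodes the peptide PACAP. Grik1 encodes a kainate-type glutamate receptor subunit and Npy1r a receptor for neuropeptide Y. In adult mouse ganglia the nonpeptidergic and peptidergic programmes are usually described in different neurons. A droplet that captured material of 2 cells, or free RNA of many, shows markers of each, and so does a cell in an intermediate state.

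In GRCm39 coordinates Mrgprd (ENSMUSG00000051207) lies at chr7:144868572-144877823 on the plus strand, Tac1 (ENSMUSG00000061762) at chr6:7554120-7565834 on the plus strand and Adcyap1 (ENSMUSG00000024256) at chr17:93506397-93515189 on the plus strand. Calca (ENSMUSG00000030669) lies at chr7:114230712-114235592 on the minus strand, Grik1 (ENSMUSG00000022935) at chr16:87692788-88087153 on the minus strand and Npy1r (ENSMUSG00000036437) at chr8:67149364-67159731 on the plus strand. All 6 are annotated as protein-coding. Counts were per gene, so calcitonin and CGRP transcripts of Calca were not separated.

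The control library held 15710 barcodes and 259136217 UMIs with a median of 2481 UMIs a barcode, and the Treg_Penk_KO library 12067 barcodes and 156441497 UMIs with a median of 2243. A Flex barcode joins a 16-base droplet barcode to an 8-base probe barcode that names the sample, so cells of different samples loaded together can share a droplet. In these libraries 4723 droplet barcodes occurred in both, which was 30.1% of the control barcodes and 39.1% of the Treg_Penk_KO barcodes. Whether the samples were loaded in 1 channel is not stated, so a shared droplet barcode is a droplet in common only if they were.

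The following barcodes are shown because most of the Treg_Penk_KO members came from droplets like these, whose barcodes differ while their counts agreed. The capitals mark the droplet barcode and the lower case the probe barcode. The first 3 pairs are the Treg_Penk_KO members of lowest, middle and highest depth in the largest group of agreeing droplets, each followed by the control barcode of the same droplet, and the fourth pair is from the second group.
Lowest depth, Treg_Penk_KO: GTGTTAAAGGTCACAGatgttgac
Lowest depth, control: GTGTTAAAGGTCACAGagtaggct
Middle depth, Treg_Penk_KO: AGTGATTCAGCCATTTatgttgac
Middle depth, control: AGTGATTCAGCCATTTagtaggct
Highest depth, Treg_Penk_KO: TCCCTCATCCCATTGAatgttgac
Highest depth, control: TCCCTCATCCCATTGAagtaggct
Second group, Treg_Penk_KO: GGCCATTTCATGACAAatgttgac
Second group, control: GGCCATTTCATGACAAagtaggct

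In the lowest of these droplets the Treg_Penk_KO barcode held 2305 UMIs, with 4 of Mrgprd, 1 of Tac1 and 1 of Adcyap1, and its control partner held 6193 UMIs with 0, 2 and 1. In the middle droplet the member held 5320 UMIs with 4, 2 and 7 of the same genes, and its partner 15421 UMIs with 4, 4 and 0. The deepest member held 10192 UMIs with 10, 4 and 4, and its partner 22980 UMIs with 4, 3 and 5. In the lowest, a single UMI met the limit of Tac1 and a single UMI that of Adcyap1. In these 3 droplets the control barcode was the deeper, and Mrgprd per UMI was higher on the Treg_Penk_KO side, the side that the rule chose. In the droplet of the second group, both barcodes were members: the Treg_Penk_KO barcode held 39672 UMIs with 14 of Mrgprd, 18 of Tac1 and 5 of Adcyap1, and the control barcode 48988 UMIs with 17, 22 and 7.

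Droplets were compared by the chi-square of their counts over both libraries, divided by its degrees of freedom and called the dispersion here, which is near 1 when 2 droplets differ by sampling noise alone. Profiles that differ modestly in a limited set of genes can also come close to 1, so a value near 1 does not show that 2 profiles are the same. Droplets below 1.15, a limit set after seeing the data, were joined into groups of a common profile. In the largest group, 813 of the 820 pairs among the droplets of 41 Treg_Penk_KO members were below the limit, with a median of 1.03 and a range of 0.919 to 1.20. Pairs of droplets with Mrgprd-only barcodes had a median of 3.52, with 9 of 1770 below the limit, and pairs with peptidergic-only barcodes 3.33, with 12 of 1770. Droplets of the group were joined because they agreed and the single-marker droplets were not, so this contrast follows in part from the grouping. Mrgprd-only barcodes met the same depth and Mrgprd limits with Tac1 and Adcyap1 each under 1 per 10000, and peptidergic-only barcodes met the Tac1 and Adcyap1 limits with Mrgprd under 1 per 10000.

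The agreement was also read within each library, from the same counts that had joined the droplets, so it is a description. Each barcode was compared with the pool of the other barcodes of its own kind in that library. All 41 of these Treg_Penk_KO members were below the limit, with a median of 1.02 over 2305 to 10192 UMIs. Of Mrgprd-only and peptidergic-only barcodes of like depth in that library, drawn outside the groups, 1 of 60 and 2 of 60 were below it. All 41 control partners were below it as well, with a median of 1.01 over 6193 to 30329 UMIs. Of Mrgprd-only and peptidergic-only control barcodes of like depth, 5 of 60 and 0 of 60 were below it. By the same limit, the agreement extended past the members to 124 of the 3953 shared droplets tested. Their median dispersion was 1.02, against 4.20 for all of those tested. The edge was not sharp, with 26 droplets between 1.15 and 1.3 and 403 from 1.3 to 2.

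The 124 droplets of the largest group had unlike barcodes, which differed at a median of 12 of the 16 bases and at no fewer than 2. They held 2082420 UMIs in all, and the Treg_Penk_KO library supplied 16.2% to 37.7% of the UMIs of each. The central 90% of tested droplets spanned 1.75% to 97.2%. The dispersion took the counts of both libraries as 1 profile, so the limit itself narrows the span of the group. The Treg_Penk_KO side of the group held 5.46 Mrgprd UMIs per 10000 (4.86 to 6.12), 6.75 of Tac1, 5.28 of Adcyap1 and 11.2 of Calca. The control side of the same droplets held 1.38, 1.64, 0.949 and 3.63. Both markers were at member levels on the Treg_Penk_KO side of these droplets and below the Mrgprd and Tac1 limits on the control side. The group was built from members, 41 on the Treg_Penk_KO side and 2 on the control side. The rule chose these by Mrgprd, Tac1 and Adcyap1, so the levels of these genes in the group are given only as a description.

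On the Treg_Penk_KO side the group's levels of these 4 genes were above those summed over all Treg_Penk_KO barcodes. There Mrgprd was at 2.11, Tac1 at 2.53, Adcyap1 at 1.08 and Calca at 4.88 per 10000. For Mrgprd, Tac1 and Adcyap1 the excess draws in part on the values that chose the members, while Calca was not used by the rule. Markers of large neurons were below the levels over all Treg_Penk_KO barcodes, Nefh at 11.4 against 26.2 and Pvalb, a calcium-binding protein gene of proprioceptors, at 0.552 against 3.35. In Treg_Penk_KO barcodes under 2000 UMIs, Mrgprd was at 1.01, Tac1 at 1.72 and Adcyap1 at 0.863. The glial transcript Apoe was at 31.2 per 10000 in the group, 24.6 over all Treg_Penk_KO barcodes and 64.0 in those shallow barcodes. On the control side the levels were nearer to those summed over all control barcodes, Adcyap1 at 0.949 in both, Apoe at 28.4 against 28.3, Calca at 3.63 against 4.09 and Mrgprd at 1.38 against 1.74, while Nefh was at 45.2 against 30.8. What made the counts of many droplets agree was not tested.

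The second group held 10 droplets, with 3.19 Mrgprd UMIs per 10000 on the control side and 3.15 on the Treg_Penk_KO side, and 3 further groups held 2 Treg_Penk_KO members each. In all, 51 of the 75 Treg_Penk_KO members lay in the 5 groups, 41 of them in the largest, against 5 of the 30 control members. That left 24 Treg_Penk_KO and 25 control members outside the groups. One further pair of Treg_Penk_KO members outside the groups, of 18969 and 14968 UMIs in droplets of 1 library, agreed at a dispersion of 1.02. The main shares, counts of genes and summed levels are given with and without the groups.

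**Figure D1:**
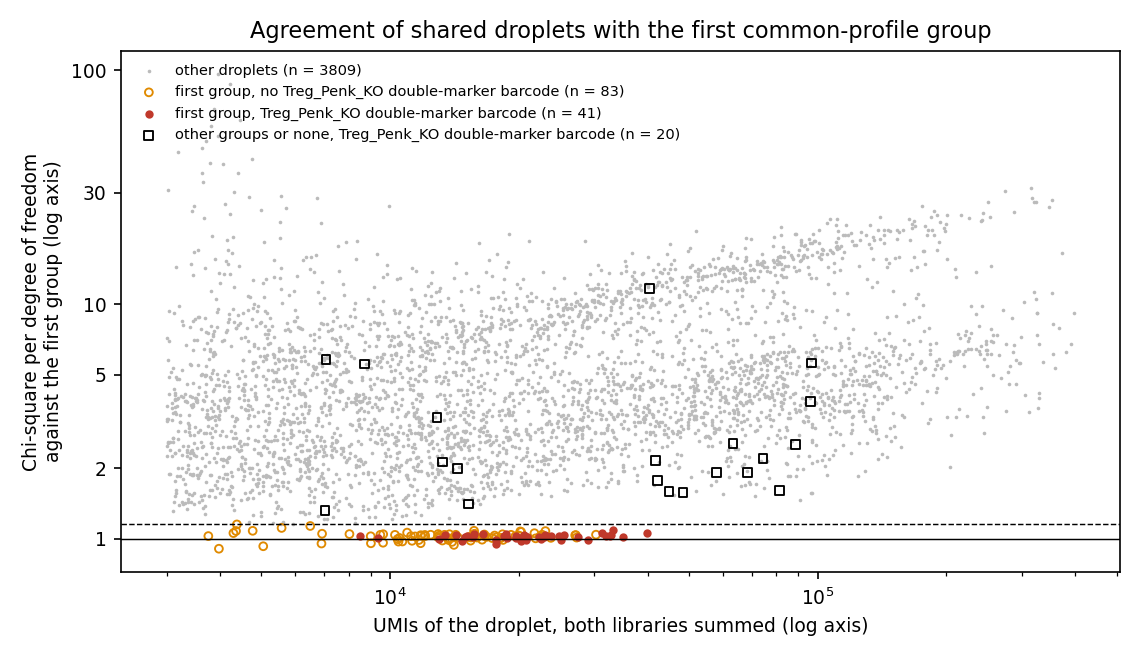
Dispersion of each shared droplet against the pool of the largest common-profile group (y, log axis) by the UMIs of the droplet over both libraries (x, log axis), with lines at 1 and at the limit of 1.15. Filled red circles are the 41 droplets with a Treg_Penk_KO member, open orange circles the other 83 of the group, open squares the 20 tested droplets whose Treg_Penk_KO member is in another group or none, and grey points all others; the group lies near 1, and the median of all tested droplets is 4.20.

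Members made up 0.352% of control barcodes of at least 2000 UMIs (30 of 8519, 0.238% to 0.502%) and 1.18% of Treg_Penk_KO barcodes (75 of 6367, 0.928% to 1.47%). Without the groups the shares were 0.298% (25 of 8379, 0.193% to 0.440%) and 0.385% (24 of 6236, 0.247% to 0.572%), and these intervals overlap. With each group counted once, 27 control members (0.317%) and 29 Treg_Penk_KO members (0.455%) remained. The higher Treg_Penk_KO share was thus as large as stated only with the groups included.

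Of all barcodes that met the Mrgprd limits, 2.59% were members in the control library (30 of 1159) and 8.06% in the Treg_Penk_KO library (75 of 931), or 2.19% and 2.76% without the groups. Of those that met the Tac1 and Adcyap1 limits, 3.58% were members in the control library (30 of 837) and 9.42% in the Treg_Penk_KO library (75 of 796), or 3.03% and 3.47% without the groups. Double-marker barcodes were a small share of either marker class in each library.

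After each barcode of at least 2000 UMIs was thinned to 2000 UMIs, 5 control barcodes (0.0587%) and 5 Treg_Penk_KO barcodes (0.0785%) met the rule. At that depth 3 Mrgprd UMIs are a higher level than the limit set for a member, so the thinned rule is stricter. Of the thinned barcodes, 3 and 5 were members at full depth. Left out were 7191 control and 5700 Treg_Penk_KO barcodes under 2000 UMIs.

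The depth of members differed between the libraries. Control members held 2114 to 298333 UMIs with a median of 19944, and 5 of the 30 were above 100000 UMIs (16.7%). Mrgprd-only control barcodes had a median of 17875 and peptidergic-only a median of 16036, with 3.5% and 2.34% of them above 100000. The control median was within 1.5-fold of that of either single-marker class, while the share of very deep barcodes was larger.

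Treg_Penk_KO members held 2305 to 81420 UMIs with a median of 6465, and none was above 100000. The single-marker medians in that library were 12897 and 15086. Without the groups the Treg_Penk_KO median was 13559.5 (n = 24), and the control median was 16645 (n = 25). The members outside the groups were therefore not shallower than Mrgprd-only barcodes in the Treg_Penk_KO library, and those inside accounted for the low median. No doublet caller was run, and how far very deep barcodes hold more than 1 cell was not tested.

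**Figure D2:**
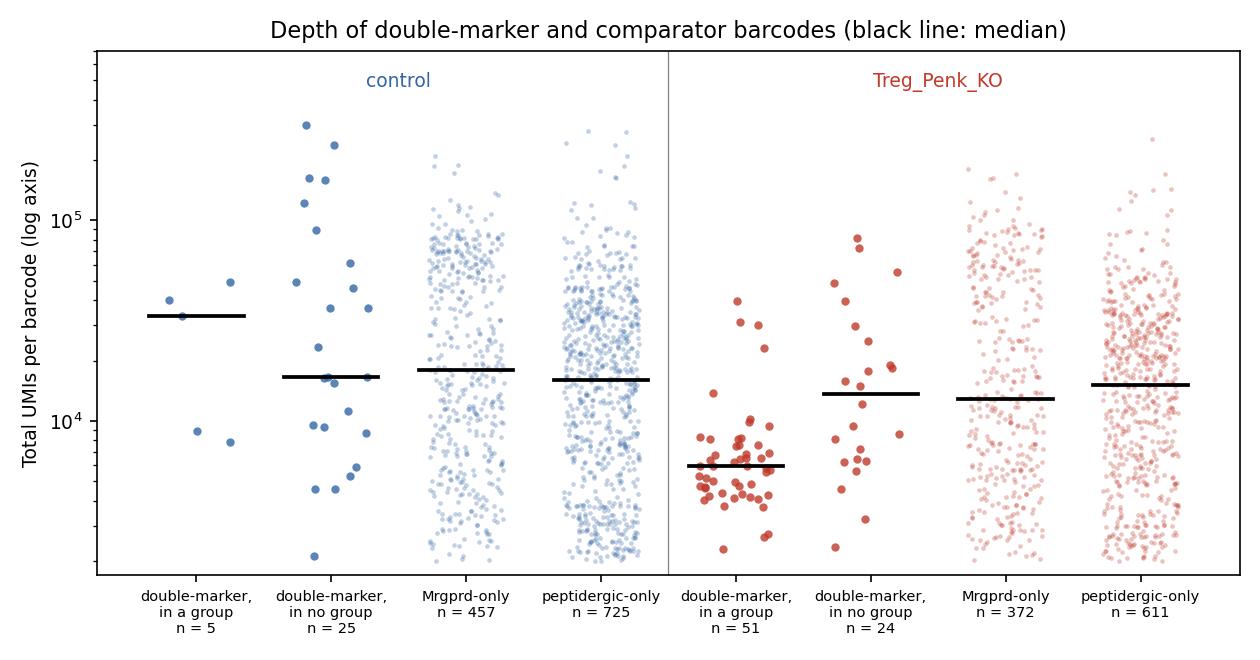
Total UMIs per barcode (log axis) for members inside and outside the common-profile groups and for Mrgprd-only and peptidergic-only barcodes of each library, with points for barcodes and black lines for medians. Most Treg_Penk_KO members inside the groups lie below 10000 UMIs, and control members outside them reach 298333.

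A droplet barcode found in both libraries was more frequent among Treg_Penk_KO members than among their comparators. It was shared for 81.3% of them (61 of 75, 70.7% to 89.4%), against 44.4% of Mrgprd-only barcodes (39.2% to 49.6%) and 39.8% of peptidergic-only barcodes (35.9% to 43.8%). Without the groups, which were defined on shared droplets, it was 41.7% (10 of 24, 22.1% to 63.4%). Among control members it was 46.7% (14 of 30, 28.3% to 65.7%), against 37.0% and 30.6% in the comparators, and 36.0% without the groups (9 of 25, 18% to 57.5%). Outside the groups the intervals of the members included the comparators' shares in both libraries.

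The partner barcode in the other library was deeper than the member for 51 of the 51 Treg_Penk_KO members inside the groups, with a median of 15990 UMIs. It was deeper for 6 of the 10 shared members outside them, and for 0 of 14 control members. The partner met the double-marker rule itself for 2 members of each library, all in the groups. Members in droplets of 1 library only numbered 16 among controls (0.294%) and 14 in Treg_Penk_KO (0.403%). Double-marker barcodes thus also occurred in droplets whose barcode was found in 1 library.

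The values of Mrgprd, Tac1 and Adcyap1 chose the members and are given only as a description. In control members Mrgprd ran from 3.00 to 15.2 UMIs per 10000 with a median of 4.66, Tac1 from 3.01 to 20.5 with a median of 5.06, and Adcyap1 from 1.00 to 13.1 with a median of 2.08. In Treg_Penk_KO members Mrgprd ran from 3.02 to 17.4 with a median of 6.75, Tac1 from 3.04 to 49.7 with a median of 6.08, and Adcyap1 from 1.01 to 27.4 with a median of 4.35. Outside the groups the Treg_Penk_KO medians were 4.73, 4.64 and 3.56. The medians of each gene lay below those of the class it marks, where Mrgprd was at 10.3 (control) and 11.2 (Treg_Penk_KO) in Mrgprd-only barcodes, and Tac1 at 12.7 and 14.5 and Adcyap1 at 6.48 and 6.90 in peptidergic-only barcodes.

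The counts behind these levels were small: Treg_Penk_KO members had medians of 4 Mrgprd, 4 Tac1 and 3 Adcyap1 UMIs, and control members of 11, 12.5 and 6.5. Many members lay close to a limit. In the control library 13 of 30 were within 1.5-fold of the Mrgprd limit, 12 of the Tac1 limit and 7 of the Adcyap1 limit, and in the Treg_Penk_KO library 12, 22 and 8 of 75. The nearest barcodes just outside had Tac1 at 2.91 (control) and 2.95 (Treg_Penk_KO), or Adcyap1 at 0.924 and 0.910. Those kept out by Mrgprd alone reached 9.29 and 9.84 per 10000, since they had under 3 Mrgprd UMIs. Low counts of the other class were frequent in the comparators, where 13.5% and 9.98% of peptidergic-only barcodes held a Mrgprd UMI and 48.4% and 40.3% of Mrgprd-only barcodes held a Tac1 UMI.

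**Figure D3:**
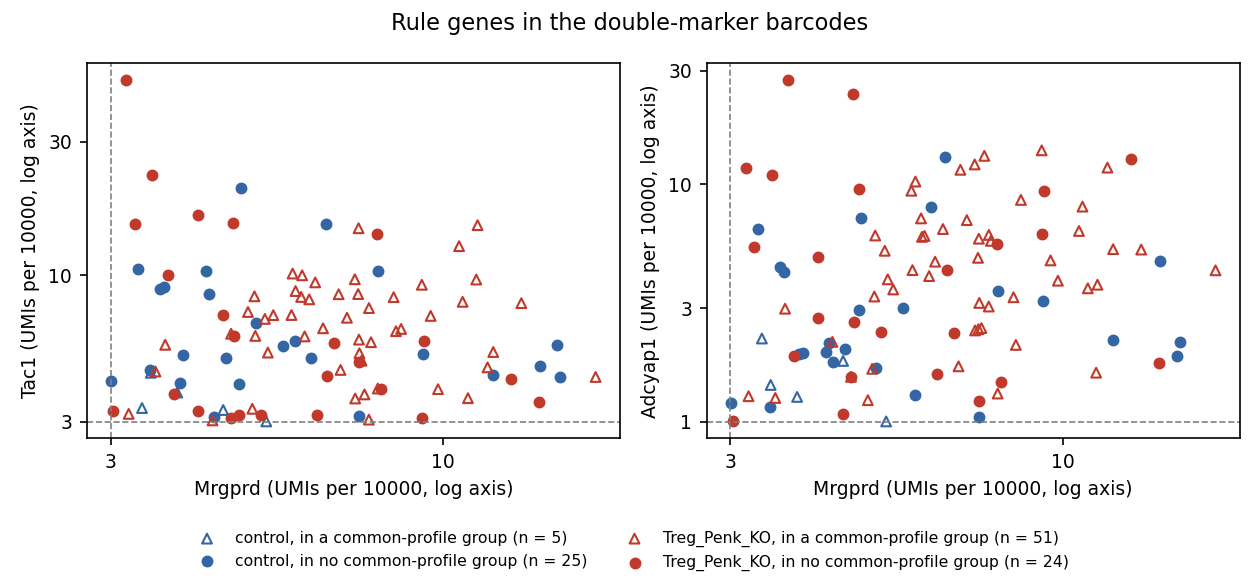
Tac1 (left) and Adcyap1 (right) against Mrgprd in each member, in UMIs per 10000 on log axes, with dashed lines at the limits of the rule. Blue is control and red Treg_Penk_KO, open triangles are members in a common-profile group and filled circles the others; 22 Treg_Penk_KO members lie within 1.5-fold of the Tac1 limit.

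Calca, the CGRP precursor, was not used by the rule. It ran from 0 to 19.4 UMIs per 10000 in control members with a median of 4.54, between 0.848 in Mrgprd-only and 13.7 in peptidergic-only barcodes. In Treg_Penk_KO members it ran from 0 to 30.4 with a median of 9.80, between 1.00 and 15.8, and its median without the groups was 9.06. Calca was detected in 28 of 30 and 72 of 75 members, but also in 75.5% and 72.6% of Mrgprd-only barcodes.

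Grik1, the kainate receptor subunit of the Mrgprd class, ran from 0 to 11.5 in control members with a median of 3.94, between 10.3 in Mrgprd-only and 0 in peptidergic-only barcodes. In Treg_Penk_KO members it ran from 0 to 15.4 with a median of 4.48, between 11.1 and 0, and its median without the groups was 2.55. It was detected in 29 of 30 and 69 of 75 members, against 28% and 24.7% of peptidergic-only barcodes, whose median depths were 16036 and 15086 UMIs.

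Npy1r, the neuropeptide Y receptor, ran from 0 to 5.47 in control members with a median of 0.668, and from 0 to 8.84 in Treg_Penk_KO members with a median of 1.05. It was detected in 22 of 30 control members (73.3%) and 44 of 75 Treg_Penk_KO members (58.7%), or in 19 of 25 and 15 of 24 outside the groups. Of Mrgprd-only control barcodes, whose median depth was 17875 UMIs (members 19944), 6.13% held a Npy1r UMI, and of peptidergic-only barcodes 66.5% did. In the Treg_Penk_KO library 5.65% of Mrgprd-only and 69.9% of peptidergic-only barcodes did. The share in control members was close to that of peptidergic-only barcodes and far from the background share in the Mrgprd class. By level, members lay between, as the medians were 1.41 (control) and 1.59 (Treg_Penk_KO) in peptidergic-only barcodes and 0 in Mrgprd-only barcodes of each library.

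Levels summed over members gave the same order. In CPM, where 100 CPM equal 1 UMI per 10000 of the summed total, Calca was at 835 in control members (791 to 881), 157 in Mrgprd-only and 1630 in peptidergic-only barcodes. In Treg_Penk_KO members it was at 1026 (962 to 1094), between 158 and 1829. Grik1 was at 503 in control members, between 1124 and 29.7, and at 463 in Treg_Penk_KO members, between 1150 and 27.5. Outside the groups Calca was at 874 and 1190 and Grik1 at 510 and 393 in control and Treg_Penk_KO members. For Calca, 43.6% of the control members' UMIs came from 1 barcode, so sums weigh deep barcodes heavily.

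The further genes of the Mrgprd class lay between the comparators without exception. Over 12 genes without Mrgprd, among them Lpar3 and Lpar5 (lysophosphatidic acid receptors), P2rx3 (an ATP-gated channel), Gfra2 (the neurturin receptor) and Scn11a (a sodium channel), 12 of 12 were between the 2 comparators in each library. Their summed level was 42.0 per 10000 in control members, between 76.9 in Mrgprd-only and 8.11 in peptidergic-only barcodes, and 37.3 in Treg_Penk_KO members, between 76.6 and 8.0. Outside the groups 12 of 12 were between as well, at 43.15 and 34.7. P2rx3 was at 583 CPM in control members, between 1008 and 180, and at 562 in Treg_Penk_KO members, between 1065 and 173. Lpar3 was at 205 CPM in control members, between 405 and 9.61, and at 152 in Treg_Penk_KO members, between 374 and 10.9.

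Of 9 peptidergic genes without Tac1 and Adcyap1, 9 lay between in the control library and 8 in the Treg_Penk_KO library. Summed, they were at 19.8 per 10000 in control members, between 6.70 in Mrgprd-only and 38.3 in peptidergic-only barcodes, and 22.9 in Treg_Penk_KO members, between 6.12 and 41.7. The counts were the same outside the groups and the sums 20.6 and 25.8. Trpv1, the capsaicin receptor channel, was at 173 and 199 CPM in members, between 28.6 and 387 (control) and between 22 and 407 (Treg_Penk_KO). Calcb, the second CGRP gene, was the exception, at 165 CPM in Treg_Penk_KO members against 200 in Mrgprd-only and 172 in peptidergic-only barcodes.

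Genes of peptide processing and secretory granules were between for 8 of 8 in control and for 7 of 8 in Treg_Penk_KO members, or 8 and 6 outside the groups. Scg2, a granin, was at 516 CPM in control members, between 62.3 in Mrgprd-only and 899 in peptidergic-only barcodes. Scg3, another granin, ran the other way, at 1298 CPM between 2257 and 386. All 7 of 7 sensory channel genes were between in both libraries, or 7 and 6 outside the groups, among them Scn10a (Nav1.8, a sodium channel of nociceptors) at 1249 CPM in control members, between 2004 and 753, and at 1292 in Treg_Penk_KO members, between 1978 and 792. Summed levels of 8 general neuron genes were like those of the comparators, at 89.9 per 10000 in control members against 90.9 and 93.9, and at 92.1 in Treg_Penk_KO members against 90.8 and 95.7, with 91.5 and 91.03 outside the groups.

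A position between the comparators was then computed from genes that the rule did not use and that were picked in the other library: the 25 genes most enriched in Mrgprd-only and the 25 most enriched in peptidergic-only barcodes. A position of 1 is the summed level of the class the genes belong to and 0 that of the other class. On the Mrgprd side control members stood at 0.472 (0.461 to 0.485) and Treg_Penk_KO members at 0.424 (0.410 to 0.438). On the peptidergic side they stood at 0.444 (0.432 to 0.456) and 0.438 (0.424 to 0.454). All 25 genes lay between the comparators in each of these 4 sets. Outside the groups the positions were 0.486 and 0.374 on the Mrgprd side and 0.459 and 0.531 on the peptidergic side.

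Single barcodes were spread around these sums. Per barcode, the median position of control members was 0.361 on the Mrgprd side (range 0.151 to 1.46) and 0.309 on the peptidergic side (-0.0609 to 0.964). In Treg_Penk_KO members the medians were 0.463 (0.0946 to 1.14) and 0.363 (-0.0107 to 1.53). Both positions reached 0.2 in 19 of 30 control members (63.3%) and 56 of 75 Treg_Penk_KO members (74.7%), which was 16 of 25 and 10 of 24 outside the groups and 46 of 51 Treg_Penk_KO members inside them. The same was true of 3.28% of Mrgprd-only and 1.38% of peptidergic-only barcodes in the control library and of 3.49% and 4.75% in the Treg_Penk_KO library.

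Full levels of both programmes at once were rare. Both positions exceeded 0.5 in 1 control member and 3 Treg_Penk_KO members, and these 3 were inside the groups. The positions of the members thus lay mostly below those of either pure class on both sides. A mixture of RNA of both classes and a cell with intermediate levels of each both give such positions, and they cannot be told apart by these values.

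**Figure D4:**
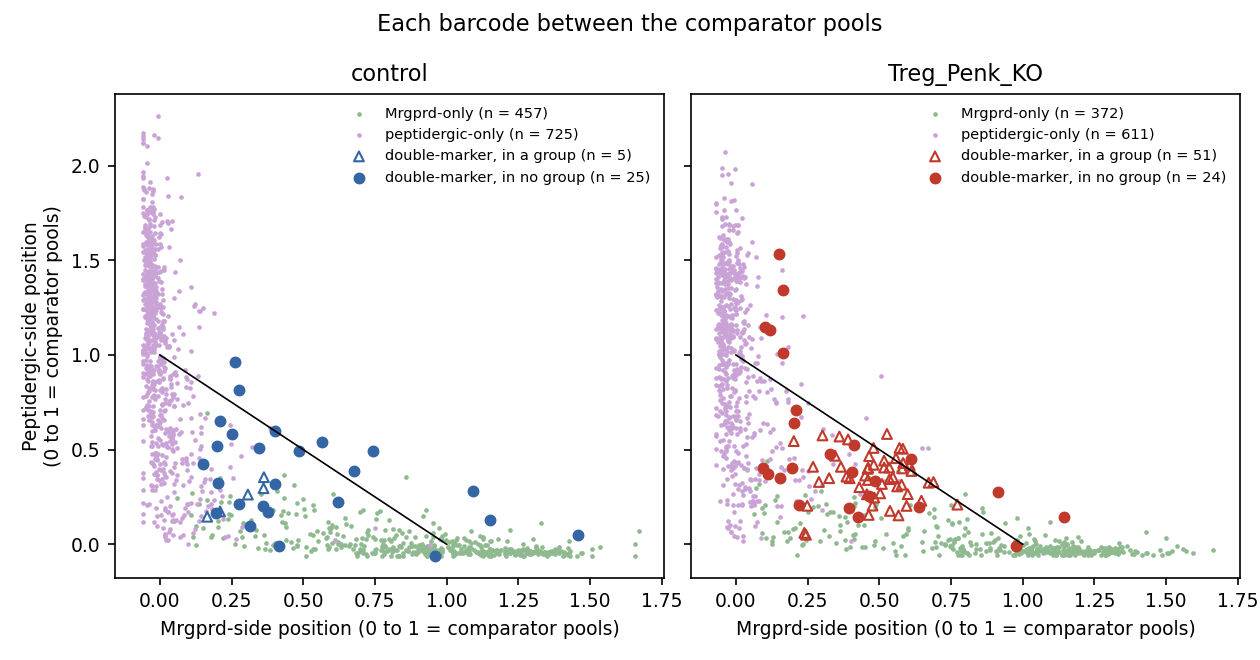
Position of each barcode on the Mrgprd side (x) and on the peptidergic side (y), where 1 is the summed level of the class itself and 0 that of the other class, in control (left) and Treg_Penk_KO (right). Large symbols are members, triangles those in a common-profile group, small green and purple points are Mrgprd-only and peptidergic-only barcodes, and the line joins the 2 comparator pools; most members lie away from both axes.

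Over all 2304 genes other than those of the rule with at least 100 UMIs in the members of each library, the member level lay between the comparators for 1410 genes (61.2%) in control and 1332 (57.8%) in Treg_Penk_KO members. Where the comparators were at least 3-fold apart, it lay between for 133 of 148 genes (89.9%) and 132 of 134 (98.5%). Outside the groups these shares were 61.8% and 49.1%, and 90.6% and 96.3%. Genes above both comparators by 1.5-fold or more numbered 3 of 2304 (0.13%) in the control library and 19 (0.825%) in Treg_Penk_KO, and outside the groups 3 (0.13%) and 35 (1.52%). Genes below both by that fold numbered 0 in either library, with or without the groups. The limit of 100 UMIs was set on the members themselves, so genes low in members were left out beforehand. The 0 therefore does not show that no gene was lower in members, and the shares between cover only genes that passed.

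Among the 10 genes that stood highest above both comparators in the 2 libraries were Igfbp7, C4b, Col4a1, Art3, Hsd17b11, Epas1, Abca8a, Selenop and Gpm6b. Igfbp7 encodes a secreted protein abundant in vessels, C4b a complement component, Col4a1 a basement membrane collagen, Epas1 a hypoxia-inducible transcription factor of endothelium and Gpm6b a glial membrane protein. The ratio of Igfbp7 to the higher comparator was 1.87 for control members and 2.24 for Treg_Penk_KO members, where 70.1% of its member UMIs came from 1 barcode and the ratio was 0.999 with barcodes weighted equally. With the groups left out, the ratios of Igfbp7 were 1.64 and 3.31 and those of C4b 1.60 and 2.19. C4b stood at 1.58 in each library with the groups, and Gpm6b at 1.36 and 1.34.

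The 10 lowest relative to both comparators, Kctd2, Ppp2r2b, Celf6, Ppp1r7, Tusc2, Kif3c, Sms, Myt1l, Hspd1 and Mapk10, had ratios of 0.737 to 0.907 to the lower comparator. Ppp2r2b, a regulatory subunit of protein phosphatase 2A, was the lowest in the Treg_Penk_KO library, at 0.737, and stood at 0.865 in the control. Myt1l, a neuronal transcription factor, stood at 0.755 and 0.905. None of the 10 reached the 1.5-fold limit in either library, among genes that had at least 100 UMIs in the members.

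Markers of satellite glia, which wrap the neuron's cell body, were read beside these results. The summed level of Fabp7, Apoe, Kcnj10, Glul and Cadm2 was 41.5 per 10000 in control members, 10.3 in Mrgprd-only and 34.7 in peptidergic-only barcodes, and 38.4, 10.7 and 25.1 in the Treg_Penk_KO library. The median over barcodes was 32.7 in control members, against 3.44 and 5.22 in the comparators, and 35.5 in Treg_Penk_KO members, against 3.42 and 4.16. Of the 5 genes, 3 were above both comparators and 2 between in control members. In Treg_Penk_KO members 4 were above both and 1 was below both. The summed levels without the groups were 36.4 and 44.4, with 2 and 4 genes above both. Apoe alone had a median of 27.2 in control members (lowest 0, highest 96.0) against 1.70 and 2.96, and of 28.7 in Treg_Penk_KO members (0 to 188) against 1.60 and 2.40. By these medians, a typical member carried several times more Apoe, and more of the 5-gene sum, than a typical barcode of either comparator. This held outside the groups too, where the Apoe medians were 21.3 and 16.4. It does not hold for each of the 5 genes on its own.

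Transcripts of myelinating Schwann cells were also above both comparators. Mbp, which encodes myelin basic protein, was at 299.9 CPM in control members, against 105.5 in Mrgprd-only and 219 in peptidergic-only barcodes, and at 247 in Treg_Penk_KO members, against 105.9 and 220.01. Prx, which encodes periaxin of the myelin sheath, was at 157 CPM in control members, against 67.3 and 109.99, and at 142 in Treg_Penk_KO members, against 60.5 and 109. Outside the groups Mbp was at 316 and 314 and Prx at 161 and 171. Nefh, a neurofilament gene of large neurons, had a median of 7.39 per 10000 in control members against 3.76 and 4.37, and of 9.81 against 3.65 and 4.03 in the Treg_Penk_KO library, but its medians outside the groups were 7.17 and 5.05. Summed, Nefh lay between the comparators, at 687 CPM between 631 and 995 in control and at 863 between 621 and 960 in Treg_Penk_KO members. Summed levels of the satellite glia and myelinating Schwann lists were above both comparators in both libraries, and their part in the double-marker levels was not tested.

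Other non-neuronal cell types gave less RNA. Fibroblast genes summed to 3.16 per 10000 in control members, against 1.06 in Mrgprd-only and 2.41 in peptidergic-only barcodes, and to 3.26 in Treg_Penk_KO members, against 1.96 and 3.03. Their medians over barcodes were 4.02 in control members, against 0.165 and 0.499, and 3.5 in Treg_Penk_KO members, against 0.110 and 0.430, and they were 3.77 and 1.57 outside the groups. The fibroblast sums outside the groups were 3.18 and 2.45, the latter between its comparators. Summed levels were 0.624 and 0.629 for macrophage genes and 1.20 and 1.19 for mural genes in control and Treg_Penk_KO members. They were 0.781 and 2.46 for endothelial genes, against 0.440 and 0.836 in the Treg_Penk_KO comparators. With the groups left out, the macrophage sums were 0.615 and 0.559, the mural sums 1.05 and 1.23 and the endothelial sums 0.725 and 3.64. Of the member UMIs, 83.0% of Cldn5 and 79.7% of Flt1 in the Treg_Penk_KO library and 80.0% of Acta2 in the control came from 1 barcode each. The T cell genes Cd3d, Cd3e, Cd3g and Foxp3 had 0 UMIs in the members of either library, which allows their sum up to 0.0232 and 0.0400 per 10000.

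The 3 genes of non-myelinating Schwann cells, Scn7a, Ngfr and L1cam, lay between the comparators, at 13.01 and 13.3 in control and Treg_Penk_KO members, and nociceptors express them too. Outside the groups they were at 13.1 and 13.5, with 3 and 2 of the 3 between.

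Lists of other neuron types were low, below 3 per 10000 in members, apart from that of peptidergic A-fibres, which holds Nefh and was at 8.11 and 9.80. Mrgpra3-class genes were at 0.208 and 1.26, Nppb-class itch genes at 1.54 and 1.33, C-fibre touch genes at 1.24 and 0.834, proprioceptor genes at 2.56 and 1.64 and A-fibre touch genes at 2.02 and 2.0. In the same order the sums outside the groups were 7.65 and 8.01 for the peptidergic A-fibre list, 0.221 and 0.944, 1.65 and 1.16, 0.905 and 0.231, 2.49 and 1.39, and 1.63 and 1.87. With the groups included, the Nppb-class sums were above both comparators. Those were at 0.702 and 1.04 in control and 0.820 and 0.796 in Treg_Penk_KO (Mrgprd-only, then peptidergic-only). The Mrgpra3-class sum was above them in Treg_Penk_KO, at 0.891 and 0.422, and below them in control, at 0.754 and 0.380. The other sums lay between the comparators. The cold-sensing genes Trpm8 and Foxp2 summed to 2.64 in control members, close to the 3.09 of peptidergic-only barcodes, and to 1.25 in Treg_Penk_KO members against 3.34, with 0.111 and 0.0709 in Mrgprd-only barcodes, and to 2.76 and 1.89 outside the groups. For Trpm8, the menthol receptor, 62.3% of the control members' UMIs came from 1 barcode. Axon injury genes summed to 4.27 and 4.92, between 1.96 and 8.71 (control) and between 1.96 and 9.54 (Treg_Penk_KO). Opioid genes summed to 3.64 and 3.39, between 1.52 and 6.23 and between 1.41 and 6.56, most of it Oprm1, the mu-opioid receptor, at 321 and 316 CPM. The axon injury sums outside the groups were 4.37 and 5.01 and the opioid sums 3.74 and 3.76.

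Activity-induced genes such as Fos summed to 1.98 per 10000 in control members, against 1.15 in Mrgprd-only and 2.08 in peptidergic-only barcodes, and to 1.13 in Treg_Penk_KO members, against 0.928 and 1.51, or to 1.89 and 0.982 outside the groups. Penk itself (ENSMUSG00000045573, chr4:4132722-4141856, minus strand) was at 12 UMIs in 6 of 30 control members, 7.56 CPM, and at 0 UMIs in the 75 Treg_Penk_KO members. A count of 0 allows up to 3 counts over the Treg_Penk_KO members, 3.25 CPM. That ceiling is 2.33-fold below the control value of 7.56 CPM, which has a counting error of its own that this fold leaves out. Where the probe lies relative to the floxed part is not given, so these counts do not check the deletion in regulatory T cells. In the control library 4 of the 12 UMIs were in 1 barcode, and 9 were outside the groups. Penk also had 0 UMIs in the 372 Mrgprd-only and 611 peptidergic-only Treg_Penk_KO barcodes, against 1 and 181 UMIs in those of the control.

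The share of Mrgprd barcodes that also carried another cell type's pair of markers was set beside the share in all remaining barcodes of at least 2000 UMIs. The first marker had to reach 3 and the second 1 per 10000, as for Tac1 and Adcyap1, and the other pairs were chosen after seeing the data. In the control library the peptidergic pair was found in 2.59% of Mrgprd barcodes against 11% of the rest, and in the Treg_Penk_KO library in 8.06% against 13.3%. Without the groups it was 2.19% against 11% and 2.76% against 12.4%. The peptidergic pair was thus less frequent in Mrgprd barcodes than elsewhere, with a ratio of shares of 0.198 and 0.222 outside the groups.

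The itch neuron pair Nppb and Il31ra was found in 0.345% of control Mrgprd barcodes against 3.87% of the rest and in 0.430% against 4.16% in the Treg_Penk_KO library. The pair of C-fibre touch neurons, Th and Slc17a8, was found in 0.0863% against 3.53% and in 0.430% against 3.94%. The proprioceptor pair Pvalb and Runx3 was found in 0.604% against 6.97% and in 0.537% against 5.85%. The A-fibre touch pair Ntrk2 and Necab2 was found in 1.29% against 4.65% and in 0.859% against 4.10%, the pair Mrgprb4 and Mrgpra3 in 0.173% against 0.720% and in 0.322% against 0.993%, and the cold pair Trpm8 and Foxp2 in 0 of 1159 and 0 of 931. Outside the groups the ratio of shares was 0.0889 and 0.109 for the Nppb pair and 0.0634 and 0.0968 for the Pvalb pair. It was 0.0244 and 0.116 for the Th pair and 0 in each library for the Trpm8 pair. It was 0.187 and 0.223 for the Ntrk2 pair and 0.239 and 0.342 for the Mrgprb4 pair, the last from 2 and 3 barcodes. Outside the groups the ratio of the peptidergic pair was thus above those of the Nppb, Pvalb, Th and Trpm8 pairs in both libraries. There it was close to that of the Ntrk2 pair and below that of the Mrgprb4 pair. With the groups it was 0.236 in control, below the 0.279 of the Ntrk2 pair. In Treg_Penk_KO it was 0.607 with the groups, above that of every other pair.

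A glial pair was found in a larger share of Mrgprd barcodes than the peptidergic pair. Fabp7 and Apoe were found together in 12% of control Mrgprd barcodes against 32.6% of the rest and in 15.7% against 30.7% in the Treg_Penk_KO library. Among the members the share was 56.7% and 61.3%, against 11.6% and 13.7% of Mrgprd-only and 24% and 20.3% of peptidergic-only barcodes. Outside the groups 12 of 25 control and 12 of 24 Treg_Penk_KO members held Fabp7 and Apoe together. The satellite glia pair was thus more frequent in members than in either comparator, with and without the groups.

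**Figure D5:**
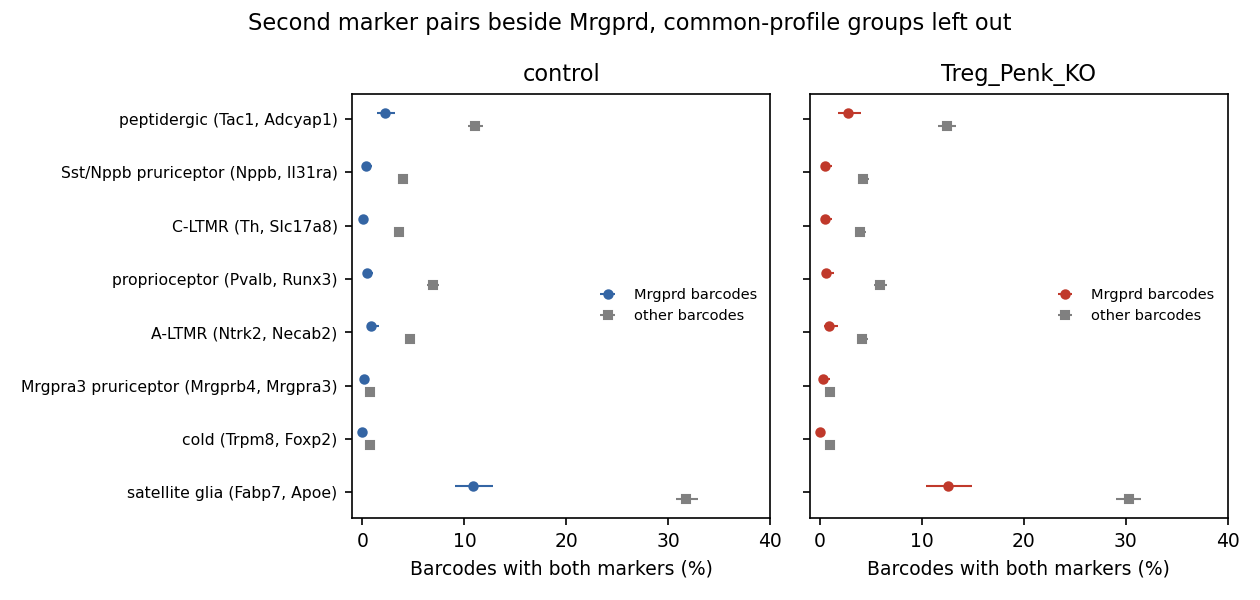
Share of barcodes that carry both markers of a pair, in percent with exact 95% intervals, among barcodes that meet the Mrgprd limits (circles) and among the other barcodes of at least 2000 UMIs (grey squares), without the common-profile groups. The peptidergic pair was found in 2.19% of Mrgprd barcodes in control and 2.76% in Treg_Penk_KO, against 11% and 12.4% of the others.

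Levels within the members were compared between genotypes, as ratios of Treg_Penk_KO to control CPM. Of 2307 genes with at least 100 UMIs in the members of each library, 18 were higher in Treg_Penk_KO members by 1.5-fold or more (0.78%) and 6 were lower (0.26%). Without the groups the counts were 42 (1.82%) and 28 (1.21%), from fewer UMIs. In Mrgprd-only barcodes they were 7 (0.303%) and 2 (0.0867%), and in peptidergic-only barcodes 0 and 1 (0.0433%), both from many more UMIs. The median ratio over all genes was 1.01 in the members.

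The levels of Mrgprd, Tac1 and Adcyap1 chose the members and the comparators, in libraries whose members differed in depth. Ratios of these genes are therefore given only as a description. Of the marker genes, Mrgprd had a ratio of 1.11 (0.992 to 1.24) and Adcyap1 one of 1.42 (1.24 to 1.61), Tac1 being at 1.14 and Calca at 1.23. Without the groups the ratio of Mrgprd was 1.01 (0.880 to 1.16), that of Tac1 1.26 (1.12 to 1.40), that of Adcyap1 1.44 and that of Calca 1.36. In the class each gene marks, Mrgprd was at 1.12 in Mrgprd-only barcodes, and Tac1 was at 1.12, Calca at 1.12 and Adcyap1 at 0.969 (0.946 to 0.992) in peptidergic-only barcodes. Of the Mrgprd-class list 11 of 13 genes had enough UMIs, with a median ratio of 0.913 and none past 1.5-fold. Outside the groups the median was 0.770 with 3 lower, among them Lpar3. Of the peptidergic list 8 of 11 had enough UMIs, with a median of 1.19 and none past 1.5-fold, and 1.19 without the groups. The medians of these lists include the rule genes, Mrgprd in the former and Tac1 and Adcyap1 in the latter.

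The 8 general neuron genes had a median ratio of 1.00, and the 3 satellite glia genes with enough UMIs one of 1.06, or 1.73 without the groups with 2 of the 3 higher. A single Treg_Penk_KO barcode held 26.7% of the Apoe UMIs of all members of that library. Cartpt, a peptide precursor, had a ratio of 1.94 (1.39 to 2.72), at 44.1 CPM in control and 85.6 in Treg_Penk_KO members, or 2.91 outside the groups, and its ratio was 1.55 in Mrgprd-only and 1.36 in peptidergic-only barcodes. Mrgprb4, a receptor of stroking-responsive neurons, had 5 UMIs in control and 55 in Treg_Penk_KO members, the latter in 7 barcodes, or 5 and 14 outside the groups.

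The 10 highest ratios were those of Slc7a5, Tmem100, Etv5, Cav1, Alkal2, Pim3, Arxes1, Dnase1l3, Trib2 and Bdnf, from 2.21 to 1.56. Slc7a5, an amino acid transporter gene, was at 63.6 CPM in control and 141 in Treg_Penk_KO members, a ratio of 2.21 (1.69 to 2.90), but 50.0% of the latter UMIs were in 1 barcode and the ratio was 0.969 with barcodes weighted equally. Etv5, a transcription factor gene, was at 121 and 220 CPM, a ratio of 1.82 (1.49 to 2.23), and stood at 1.71 without the groups and 2.08 with equal weights. Bdnf, the brain-derived neurotrophic factor gene, was at 224 and 350 CPM, a ratio of 1.56 (1.34 to 1.82), and at 1.21 with equal weights. In the comparators the ratio of Etv5 was 0.923 and 0.928 and that of Bdnf 0.949 and 0.900.

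The 10 lowest were Trpm8, Vat1l, Snhg11, Rarres1, Runx1, Fxyd1, Ckb, Ldhb, Asic2 and Syngr3, from 0.469 to 0.709. Trpm8 was at 259 CPM in control and 121 in Treg_Penk_KO members, a ratio of 0.469 (0.377 to 0.579), and 0.683 without the groups. Runx1, a transcription factor of nonpeptidergic nociceptors, was at 178 and 114 CPM, a ratio of 0.640 (0.507 to 0.804), at 0.571 without the groups and 0.612 with equal weights, and at 0.762 and 0.821 in the comparators. Asic2, a proton-gated channel gene, had 304 UMIs in control and 123 in Treg_Penk_KO members, a ratio of 0.696. Ratios this far from 1 rest on 30 and 75 barcodes of 1 library each, in which single barcodes held up to 62.3% of the UMIs of a gene among these 20.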

How the data were processed

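Each library was deposited as a matrix of raw counts (UMIs per gene and barcode), of barcodes already called as cells. Reads were aligned to GRCm39 with Cell Ranger 7.0 per the labels' protocols, while the matrix headers name version 8.0.1, and Seurat is named in the submitters' processing notes. The deposited counts cover 19059 genes and were used as they are. Groups follow the genotype labels, with 1 library each, so no test between genotypes and no p-value was computed. No doublet caller was run, and no barcode was removed except by the limits given. Levels are UMIs per 10000 of a barcode or CPM of summed UMIs, without a pseudocount, except that 5 CPM were added to rank genes for the positions. Shares have exact Clopper-Pearson, sums exact Poisson and ratios exact conditional binomial 95% intervals, which take UMIs as independent and cover counting error only. Thinning used seed 1. Named genes were all genes of the marker and pathway lists and the 10 most extreme in each ranking, from genes with at least 100 UMIs in the members of each library. Dispersion used features with an expected count of at least 2 in a pair, or 1 against a pool, in droplets of at least 3000 UMIs over both libraries. Groups built from at least 5 member droplets were extended to other droplets. The members and lists were chosen with earlier results of these data known. Scripts were tested on simulated data. Tables were made in pandas 2.3.3 with numpy 2.4.6 under Python 3.11.15, intervals with scipy 1.17.1 and figures with matplotlib 3.10.9. Gene coordinates are from the GENCODE annotation of GRCm39. Results of some genes are not reported here.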

Additional observations from a re-analysis of the deposited data

How the results depend on the processing

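Of 74 alternatives over 14 results, 21 left the value within its 95% interval or a count within 1.5-fold, and 53 moved it. No paired analysis was possible because each group is 1 library and the labels carry no replicate numbers. The settings that leave out or count once the common-profile groups were chosen after seeing the data. With Mrgprd at 10 per 10000, members were 0.0470% (control) and 0.173% (Treg_Penk_KO) of barcodes, their median depth was 0.278 and 0.252 times that of Mrgprd-only and 0.309 and 0.250 times that of peptidergic-only barcodes, and 25% and 90.9% were in shared droplets. With Tac1 at 10 and Adcyap1 at 3, the shares were 0.0470% and 0.157%, the Treg_Penk_KO depth ratios 0.947 and 0.632, and sharing 0% and 40.0%. The positions were then 0.283 (control) and 0.239 (Treg_Penk_KO) on the Mrgprd side and 0.691 and 0.794 on the peptidergic side. Thinned to 2000 UMIs, the shares were 0.0587% and 0.0785%. From 5000 UMIs up, the Treg_Penk_KO depth ratio to Mrgprd-only barcodes was 0.376. Against comparators with 0 UMIs of the other class, the depth ratios to Mrgprd-only barcodes were 2.99 and 1.06, and the positions 0.542, 0.383, 0.478 and 0.411 (control Mrgprd side and peptidergic side, then Treg_Penk_KO). In droplets of 1 library the positions in that order were 0.438, 0.528, 0.395 and 0.582, the Treg_Penk_KO share was 0.403%, its depth ratios 1.46 and 1.06, and 99 genes were higher and 93 lower. With barcodes weighted equally the positions were 0.495, 0.337, 0.478 and 0.409, and 65 genes were higher and 37 lower. Without the groups the positions were 0.486, 0.459, 0.374 and 0.531, the Treg_Penk_KO share was 0.385%, its depth ratios 1.05 and 0.894, its sharing 41.7%, and 42 genes were higher and 28 lower, against 18 and 6. With each group counted once the Treg_Penk_KO share was 0.455%. The cause of these moves was not tested. With 30 and 75 barcodes of unequal depth, sums rest on a few deep barcodes.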
